A study of Mus musculus with 19 samples.

Results

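The 9 genes described here are components and targets of bone morphogenetic protein (BMP) signalling: the ligand Bmp4, the receptor Bmpr1a, the signal transducers Smad1 and Smad5, the inhibitory Smad6 and Smad7, and the inhibitor-of-DNA-binding genes Id1, Id2 and Id3. They were taken by name, as genes of this pathway, out of 26182 RefSeq genes with a curated transcript. No threshold on a measured value was used, but earlier results of these data were known when the list was made. The data were chromatin immunoprecipitation (ChIP) libraries for the transcription factor SOX3 in mouse testis at postnatal day 7 (P7). For each gene, SOX3 peaks were collected within 2 kb of an annotated start site (promoter peaks), elsewhere in the gene body, and within 50 kb on either side (flanking peaks). This gave 105 of the 58351 peaks of replicate 1 and 82 of the 38832 peaks of replicate 2.

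The series comprised 19 samples, of which 4 were analysed here: 2 replicates of SOX3 ChIP-seq and 2 of SOX3 ChIP-nexus, a variant in which an exonuclease trims the bound DNA toward the protein. The other 15 were not analysed here. All 4 libraries came from 1 group of wild-type testes at P7, with antibodies to SOX3 from a pair of suppliers listed for each, and the study's methods describe chromatin of seminiferous tubules from pooled mice. In the testis the study treats SOX3 as a factor of undifferentiated spermatogonia. The chromatin was nevertheless of whole tubules, which also hold Sertoli cells, and the lists themselves do not separate cell types. Peak lists also hold no expression values with which the tissue label could be checked. With 2 replicates of 1 condition no test between groups was possible, and all values are descriptions of these 2 libraries. The study describes the replicates as independent biological ones. Read depth is unknown from the lists, but the study reports it. By that report, replicate 1 of SOX3 ChIP-seq had fewer unique reads than replicate 2. Both SOX3 ChIP-nexus libraries had far fewer unique reads than either.

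BMP ligands bind pairs of type I and type II receptor kinases, which phosphorylate SMAD1, SMAD5 and SMAD9. These join SMAD4, enter the nucleus and bind regulatory DNA, of which the BMP response elements of the Id genes are the textbook examples. SMAD6 and SMAD7 are themselves induced by the pathway and dampen it. ID proteins hold basic helix-loop-helix factors away from DNA. In the testis, BMP4 is known to act on spermatogonia and to favour their differentiation, and ID4 marks spermatogonial stem cells.

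SOX3 peaks lay at the promoters of all 9 genes in both replicates. The 9 of 9 genes in replicate 1 compare with 62.7% of all genes, the 9 of 9 in replicate 2 with 54.7%, and the 9 of 9 in both with 52.2%. The peaks of the 2 replicates overlapped by at least 50% of either peak at all 9 genes, against 50% of all genes. At 8 of the 9, all but Bmp4, a peak covered the start site in both replicates, against 45.5% of all genes. The same 8 had a q score above 60 in both replicates, against 35.2% of all genes. The q score is 10 times the negative log10 of the false discovery rate, so 30 is the floor of both lists and higher values are more significant. Occupied promoters were the more frequent state in this tissue, and with 9 genes these counts were not tested against the background.

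The strongest promoter peaks of the 9 genes had a median q score of 338 in replicate 1 and 115 in replicate 2. Over all genes with a promoter peak the medians were 165 and 78.8. By log2 ratio of ChIP over input the members' medians were 4.51 and 2.91, against 3.67 and 2.72 over all such genes. Their peaks were also wider, with medians of 2955 bp and 1789 bp against 1641 bp and 1329 bp. Every member had the higher q score in replicate 1, as did 95.9% of the 13665 genes with a promoter peak in both. The q score was 2.75 times as high in replicate 1 in the median over members and 2.29 times over those genes.

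The order of the genes by q score was largely shared by the replicates. In both, Smad5, Smad7, Id3 and Bmpr1a took the 4 highest places, though not in the same order, and Id2, Id1, Smad1, Smad6 and Bmp4 followed in that order. The 4 highest cannot be ordered among themselves from these lists, since their places changed between the replicates. The ratio of a gene's q scores in replicate 1 over replicate 2 ran from 1.79 at Bmpr1a to 3.09 at Smad1. Bmp4 stood lowest in both.

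**Figure D1:**
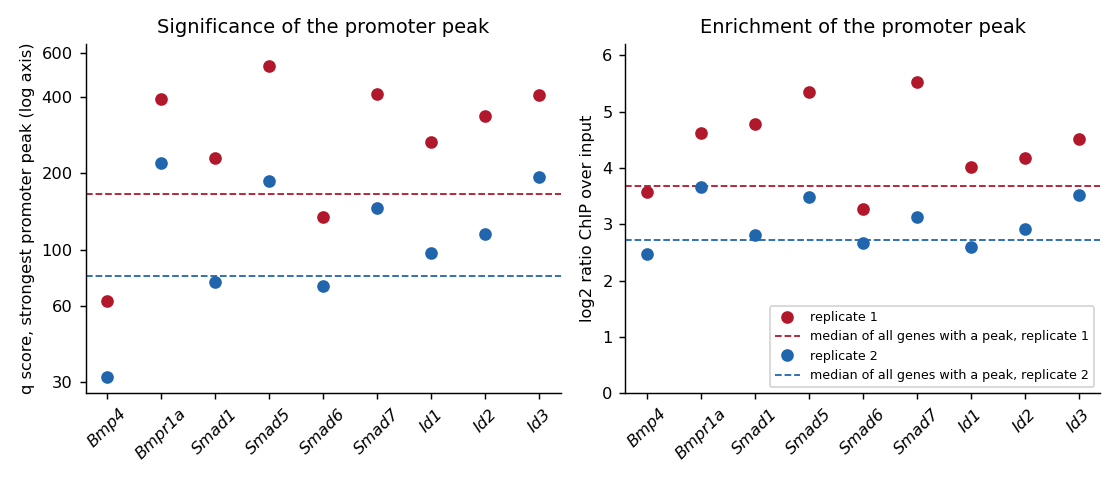
Strongest promoter peak of each gene in each SOX3 ChIP-seq replicate, as q score on a log axis (left) and as log2 ratio of ChIP over input (right); dashed lines are the medians of all genes with a promoter peak in that replicate. Bmp4 and Smad6 lie below the median q score in both replicates, Smad1 lies below it in replicate 2, and the 6 other genes lie above it in both.

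Bmp4 encodes the ligand and occupies chr14:46383525-46390669 (mm10) on the minus strand. Its peak in replicate 1 had a q score of 62.5 and a log2 ratio of 3.58, and its peak in replicate 2 had a q score of 31.5 and a log2 ratio of 2.48. Both values were low for an occupied promoter, at the 21.1 and 2.63 percentiles of q score among genes with a promoter peak. The peaks, chr14:46386316-46389270 and chr14:46387853-46388734, had their midpoints in an intron and began 1399 and 1935 bp past the start site. Neither reached the start site itself, and with a window of 1 kb Bmp4 had no promoter peak in either replicate. Both also lay within 2 kb of a start site of Gm15222, so they are not assigned to Bmp4 alone. The pair of q score and log2 ratio in replicate 2 was shared by 989 peaks of that list and the pair in replicate 1 by 144, which shows how coarse the scores are near the floor.

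The sequence just before the start site is shown for Bmp4, where no peak covered it, and for Smad5, which had the highest q score of the 9 in replicate 1. The sequences are the 250 bases before the RefSeq start site on GRCm38.p6, the assembly also called mm10, written 5′ to 3′ on the gene's strand with each CpG in capitals. Bmp4 (chr14:46390670-46390919, minus strand) holds 11 CpGs and Smad5 (chr13:56702760-56703009, plus strand) holds 22, at a GC content of 63.2% and 60%.
Bmp4: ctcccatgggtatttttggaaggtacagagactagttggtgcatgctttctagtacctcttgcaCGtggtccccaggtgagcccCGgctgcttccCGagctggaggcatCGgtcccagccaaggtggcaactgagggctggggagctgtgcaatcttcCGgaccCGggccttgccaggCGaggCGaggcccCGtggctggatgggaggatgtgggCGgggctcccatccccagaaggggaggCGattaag
Smad5: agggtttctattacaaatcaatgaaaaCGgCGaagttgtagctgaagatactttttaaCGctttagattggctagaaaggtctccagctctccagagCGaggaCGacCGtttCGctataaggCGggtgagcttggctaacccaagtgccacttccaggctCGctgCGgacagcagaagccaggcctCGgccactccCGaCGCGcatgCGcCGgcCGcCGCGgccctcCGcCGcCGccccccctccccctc

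Bmpr1a encodes a type I BMP receptor and lies on the minus strand of chromosome 14, with its curated start site at position 34502546. The peak was chr14:34501447-34503726 in replicate 1, with a q score of 394 and a log2 ratio of 4.61. In replicate 2 it was chr14:34501785-34503573, with 220 and 3.66. This was the highest q score of the 9 genes in replicate 2, at the 96.1 percentile of genes with a promoter peak, and the 89.1 percentile in replicate 1. No peak lay elsewhere in the gene body in either replicate.

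Smad1 and Smad5 encode the receptor-activated transducers. Smad5 (chr13:56703010-56742378, plus strand) had a peak over its start site with a q score of 531 and a log2 ratio of 5.34 in replicate 1 and of 187 and 3.49 in replicate 2. These are the 96.1 and 93.1 percentiles by q score. Smad1 (chr8:79338395-79399428, minus strand) had a q score of 230 and a log2 ratio of 4.79 in replicate 1 and of 74.5 and 2.80 in replicate 2. Its q score lay above the median of occupied genes in replicate 1 and below it in replicate 2, at the 65.9 and 46.3 percentiles. Smad1 also had the greatest ratio of q scores between replicates of the 9, and its 2 and 1 gene-body peaks were not at the same places.

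Smad6 and Smad7 encode the inhibitory SMADs and were the genes with most peaks inside the gene. Smad7 (chr18:75367365-75395935, plus strand) had a promoter peak of 7863 bp in replicate 1, with a q score of 412 and a log2 ratio of 5.53. In replicate 2 it was 3606 bp wide, with 146 and 3.14. In both replicates the Smad7 peak also lay within 2 kb of a start site of Gm20544, so it is not assigned to Smad7 alone. The 5.53 was the highest log2 ratio of the 9. Smad6 (chr9:63953076-64022085, minus strand) had a promoter peak of 3862 bp with 134 and 3.27 in replicate 1 and of 3179 bp with 71.9 and 2.67 in replicate 2. The Smad6 peak was thus wide, at the 93.5 and 96.6 percentiles of width, but below the median in q score.

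Gene-body peaks in both replicates were found at 3 of the 9 genes, Smad1, Smad6 and Smad7, against 23.4% of all genes. Smad6 had 8 in each replicate and Smad7 had 6 and 5. Of the 17 gene-body peaks near the members in replicate 1, 3 were found in replicate 2, and of 14 in replicate 2, 5 were found in replicate 1, where found means that the other list covered at least 50% of the peak. These shares, 17.6% and 35.7%, compare with 11.9% and 28.4% of all peaks outside promoters. In Smad6 a single one of the 8, about 24 kb past the start site in an intron, was found in both, with q scores of 31.4 and 36.7. In Smad7 the 2 found in both directions lay about 8 to 12 kb and about 21 to 22 kb past the start site, with 59.1 and 82.2 in replicate 1 and 47.4 and 41.9 in replicate 2. No gene-body peak of replicate 2 had a q score above 60.

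The string GTCTNGAC, with any base at N, was searched on both strands around every start site as a loose form of a SMAD element. It was present within 2 kb of the start sites of 6 of the 9 genes and of 22.2% of all genes. It contains GTCT, the SMAD box that also ends the BMP response element below. The match at Smad6 spans the start site, 4 bases before to 3 bases after it, under the peak of both replicates. It is shown because of that position, with the match in capitals, on the minus strand at chr9:64022049-64022070.
Smad6: ccaaagtGTCTAGACtggcata
At Smad7 a match lay 189 bases before the start site, under the peak of both replicates.

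Id1, Id2 and Id3 encode inhibitors of basic helix-loop-helix factors and are the classical BMP targets. Id3 (chr4:136143822-136145392, plus strand) had a promoter peak with a q score of 407 and a log2 ratio of 4.51 in replicate 1 and of 193 and 3.52 in replicate 2. It stood at the 90.1 and 93.8 percentiles of occupied genes. In both replicates the Id3 peak also lay within 2 kb of a start site of Gm42329, so it is not assigned to Id3 alone. Id2 (chr12:25093799-25096092, minus strand) had 338 and 4.17, then 115 and 2.91, at the 83.9 and 72.4 percentiles. Id1 (chr2:152736251-152737410, plus strand) had 266 and 4.01, then 96.7 and 2.60, at the 72.8 and 61.9 percentiles. Id3 was the highest of the 3 in both replicates and Id1 the lowest.

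The 3 Id genes are short, and the peaks at Id1 and Id3 were longer than the genes. The Id1 peak of replicate 1 was 7819 bp wide and ran from 1604 bp before to 6214 bp after the start site, far past the end of the gene. In replicate 2 about the same stretch held 2 promoter peaks, 1 of 2786 bp over the gene and 1 of 2005 bp beginning 1720 bp past the start site with a q score of 60.9. The Id3 peak spanned 6796 bp, then 3551 bp in replicate 2, where a further peak with a q score of 62.6 began 3609 bp past the start site. Id2 had a narrower promoter peak, 2510 and 1376 bp, and a separate upstream peak that began 2027 and 2086 bp before the start site, just outside the promoter window. That upstream peak had a q score of 321 in replicate 1 and of 130 in replicate 2, where it was stronger than the promoter peak.

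The regions before the start sites of Id2 (chr12:25096093-25096342, minus strand) and Id3 (chr4:136143572-136143821, plus strand) are shown because a peak covered both in each replicate. Each is the 250 bases before the RefSeq start site on GRCm38.p6 with CpGs in capitals, and each holds 18 CpGs.
Id2: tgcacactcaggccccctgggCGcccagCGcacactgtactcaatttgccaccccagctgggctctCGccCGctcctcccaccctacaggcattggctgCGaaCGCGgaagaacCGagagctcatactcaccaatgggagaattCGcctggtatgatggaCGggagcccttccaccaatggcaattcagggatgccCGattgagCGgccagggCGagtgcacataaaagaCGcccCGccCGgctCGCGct
Id3: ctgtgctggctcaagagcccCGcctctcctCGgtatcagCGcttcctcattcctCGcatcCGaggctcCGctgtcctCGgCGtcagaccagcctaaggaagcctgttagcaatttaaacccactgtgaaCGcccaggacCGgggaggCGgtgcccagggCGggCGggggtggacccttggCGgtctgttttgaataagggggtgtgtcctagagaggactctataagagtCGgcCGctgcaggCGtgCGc

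The BMP response element of the Id genes was searched as GGCGCC, any 5 bases, then GTCT, on both strands. It was found within 5 kb of the start site at Id1, Id2 and Id3 and at none of the other 6 members. Over all genes 0.561% had one in that window, or 147 genes, and 0.902% of those with a CpG-rich start site. Id3 had 3 matches, which 3 of the 26182 genes did, and Id2 had 2, which with the former made 5 genes. Within 2 kb the element was found at 1 of the 9 members, Id3, and at 0.412% of all genes. The element is known from the Id genes, so its presence near them was anticipated and is no separate result. GGCGCC alone, which is part of the element, was within 2 kb of the start sites of all 9 members and of 42.7% of all genes. Among genes with a CpG-rich start site, as most members have, the share was 73.3%.

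All 6 matches at the Id genes lay under a SOX3 peak in replicate 1 and 5 in replicate 2. Of the 447 matches in the genome, 20.6% lay under a peak in replicate 1, 16.8% in replicate 2 and 14.5% in both. The genome matches lay at any distance from genes, whereas the Id matches lay within 5 kb of start sites with a promoter peak. The share for matches within 5 kb of all start sites was not computed, so these values are not like for like. In replicate 1 a single peak of 6796 bp covered the Id3 matches 971 and 4159 bases after the start site. Of the 147 genes with a match, 66% had a promoter peak in both replicates. The 5 matches of Id2 and Id3 are shown with 20 bases on either side, on the strand that reads GGCGCC first, with GGCGCC and GTCT in capitals. They are named by their distance from the start site.
Id2, 2776 bases before, minus strand, chr12:25098834-25098888: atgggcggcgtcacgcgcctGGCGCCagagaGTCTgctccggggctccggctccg
Id2, 3034 bases after, minus strand, chr12:25093024-25093078: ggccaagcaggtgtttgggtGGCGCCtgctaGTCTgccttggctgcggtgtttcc
Id3, 3282 bases before, plus strand, chr4:136140520-136140574: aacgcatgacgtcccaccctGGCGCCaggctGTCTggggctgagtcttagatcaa
Id3, 971 bases after, plus strand, in an intron, chr4:136144773-136144827: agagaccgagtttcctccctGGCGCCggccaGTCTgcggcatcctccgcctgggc
Id3, 4159 bases after, plus strand, chr4:136147961-136148015: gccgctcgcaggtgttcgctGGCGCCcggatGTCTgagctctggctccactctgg
The first of Id2 lay under the upstream peak of both replicates, and the second under a peak in replicate 1 only. The 3 of Id3 were covered in both, the first by a separate upstream peak with q scores of 127 and 81.3. That upstream peak also lay within 2 kb of a start site of Gm42329 in both replicates. At Id1 the match was 3220 bases past the start site, beyond the end of the gene, and was covered in both replicates. GGCGCC alone also began at position -1099 from the Id1 start site, under a peak in both replicates. It had no GTCT at the searched spacing, so it was not counted as a match. Whether either is the Id1 element known from earlier work was not tested. A match describes letters in a window and does not show that a SMAD binds there.

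Letters of the kind SOX proteins bind were searched in the same way. AACAAT, on either strand, was within 2 kb of the start sites of 7 of the 9 members and of 82.6% of all genes. AACAAAG was there in 5 of 9 members and 62.0% of all genes, with none at Id1, Id2 or Id3. Within 5 kb and under the peaks of both replicates, AACAAT was present at Id2, Id3 and Smad6, with 1, 2 and 1 matches, and AACAAAG at Smad1 and Smad6, with 1 match each. Within 5 kb, peaks aside, 97.9% of all genes had AACAAT and 91.7% had AACAAAG. The share of all genes with either under peaks was not computed, so these counts have no background. At Smad5, with the highest q score in replicate 1, neither sequence lay under a peak.

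Most of the members had a CpG-rich start site. The CpG content, as observed over expected in 500 bp on either side of the start site, ran from 0.44 at Bmp4 to 1.02 at Bmpr1a, against a median of 0.74 for genes with promoter peaks in both replicates and 0.19 for genes with none. A start site was called CpG-rich when this ratio exceeded 0.6 at a GC content of at least 55%. The 7 CpG-rich members, all but Id1 and Bmp4, all had a peak in both replicates, against 90.2% of the 9642 CpG-rich genes. Id1, with 0.60 just under the cutoff, and Bmp4 had one too, against 30% of the other genes. CpG-rich genes had median q scores of 226 and 95.6, and among them the 7 members stood at a median percentile of 84.5 in replicate 1 and 80.0 in replicate 2. Smad6, at 24.9 and 31.9, was low within this class, and Smad5, at 95.0 and 91.4, was high in both.

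**Figure D2:**
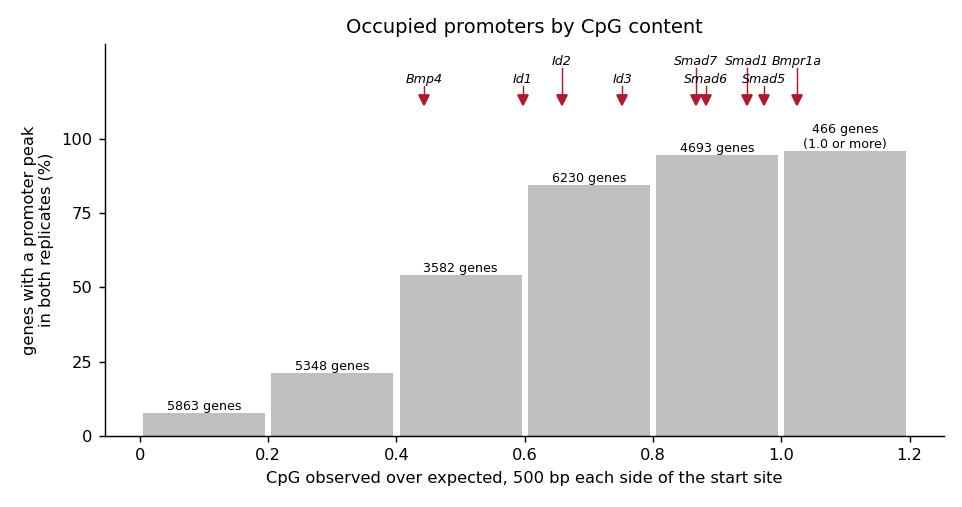
Bars give the percentage of genes with a SOX3 promoter peak in both replicates by CpG observed over expected around the start site, with the number of genes above each bar, and the last bar holds all genes at 1.0 or more. Arrows mark the 9 genes; Bmp4 and Id1 fall in a bar of 54.1%, Id2 and Id3 in one of 84.4%, Smad1, Smad5, Smad6 and Smad7 in one of 94.7% and Bmpr1a in one of 96.1%.

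Flanking peaks numbered 79 in replicate 1 and 58 in replicate 2. Of these, 26.6% and 51.7% were found in the other replicate. Leaving out those at other genes' promoters, 17 of 70 peaks of replicate 1 and 26 of 50 of replicate 2 were found in the other, against 11.9% and 28.4% of all peaks outside promoters. They were unevenly spread. Smad7 had 20 and 12, Id1 had 16 and 12, Id3 had 16 and 8 and Smad6 had 14 and 8, which are the 97.6, 92.3, 92.3 and 88.6 percentiles of all genes in replicate 1 and the 94.6, 94.6, 84.6 and 84.6 percentiles in replicate 2. Id2, Bmp4, Bmpr1a, Smad1 and Smad5 had between 1 and 6. The flanking window was 50 kb on either side for every gene, whatever its length. Neighbouring genes share peaks, so these counts are not independent.

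The 5 strongest flanking peaks of replicate 1, one of them the upstream peak of Id2 given above, each overlapped a peak of replicate 2 by at least 1 base. The strongest had q scores of 547 and 204, lay about 42 kb beyond the end of Smad1 and was within 2 kb of a start site of Mmaa. Upstream of Smad6, a peak of 229 and 83.9 lay 26.2 and 27.4 kb from the gene, within 2 kb of a start site of 1110036E04Rik. The other 3 of the 5 lay at no other annotated promoter. Besides that of Id2, Id1 had one of 286 and 112 at 27.7 kb, and Smad7 had one of 275 and 127 at 22.6 and 23.8 kb. Less than 50% of the replicate 1 peaks of Id1 and Smad7 was covered, so both count as not found in the shares above. In all, 9 flanking peaks of replicate 1 and 8 of replicate 2 lay within 2 kb of another gene's start site.

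**Figure D3:**
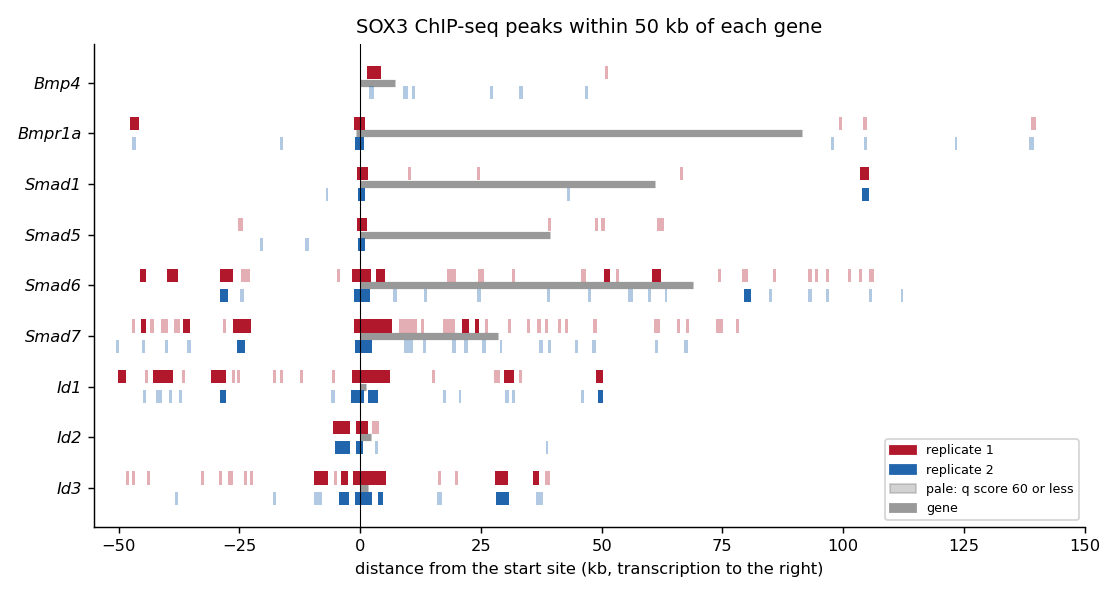
SOX3 ChIP-seq peaks of replicate 1 (red, upper bars) and replicate 2 (blue, lower bars) by distance from each gene's start site in kb, with the gene as a grey bar, transcription to the right, and peaks with a q score of 60 or less in pale colour; peaks under 0.6 kb are drawn 0.6 kb wide. All 9 genes have a bar at or just past the start site in both replicates, and Smad7, Id1, Id3 and Smad6 carry the most peaks around them.

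The rest of the pathway was examined in a list of 41 further genes. Promoter peaks in both replicates were found at 25 of them, or 61.0%, against 52.2% of all genes. A further 7 had a peak in 1 replicate and 9 had none. The share differed by role, but the roles held only 1 to 10 genes each. CpG content, with which occupancy rose over all genes, was not compared between roles.

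Ligands were the least occupied, with 3 of 10 genes having peaks in both replicates. Bmp7 was the highest of these, with q scores of 116 and 53.0, and Bmp8a the lowest, with 55.3 and 55.9. Bmp2, Bmp5, Bmp10, Bmp15 and Gdf2 had no promoter peak in either list.

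Receptors had peaks in both replicates at 4 of 6 genes. Bmpr1b had one in replicate 2 only, with a q score of 31.5, and Acvrl1 in replicate 1 only, with 72.8. Bmpr2, the type II receptor, was the highest, with 487 and 235, and Acvr1, a type I receptor, the lowest, with 191 and 46.5. Of the SMADs, 3 of 4 were bound in both. Smad2 was highest, with 512 and 172, and Smad3 lowest, with 332 and 87.5. Both serve the activin and TGF-β branch. Smad9, whose product is activated like SMAD1 and SMAD5, had a peak in replicate 2 only, with a q score of 33.6.

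Extracellular inhibitors had peaks in both replicates at 6 of 10 genes. Twsg1, whose product binds BMPs outside the cell, was the highest, with 470 and 105, and Nog, which encodes the antagonist noggin, the lowest, with 49.8 and 31.5. Grem1 and Sostdc1 had none. Membrane and intracellular inhibitors had peaks at all 5 genes. Smurf2, a ubiquitin ligase for SMADs, had 675 and 209, and Bambi, a pseudoreceptor, had 306 and 108.

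Id4, the remaining member of the ID family and a marker of stem spermatogonia, was occupied in both replicates. Its promoter peak scored 168 in replicate 1 and 145 in replicate 2 by q, at log2 ratios of 4.14 and 3.76. Its q score was lower than that of Id1, Id2 and Id3 in replicate 1 and lower than that of Id3 alone in replicate 2. Of 5 further target genes, 3 were bound in both, with Hey1 highest (181 and 38.3) and Msx1 lowest (59.7 and 56.1), and Msx2 and Dlx5 had none.

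The genes most like the members in promoter q score were Acvr2a, Bambi and Acvr2b. Their percentiles in the 2 replicates lay 5.60, 5.81 and 10.1 points from the members' medians of 83.9 and 72.4, as the Euclidean distance over 2 replicates.

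**Figure D4:**
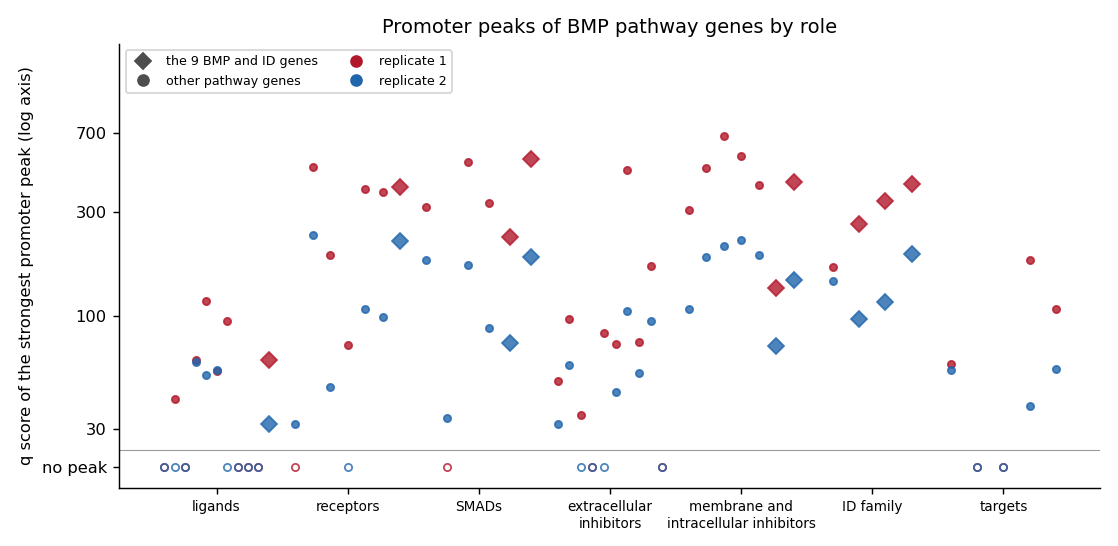
Strongest promoter peak q score (log axis) of the 9 genes (diamonds) and 41 further BMP pathway genes (circles) by role, in replicate 1 (red) and replicate 2 (blue); open symbols at the bottom mark genes with no promoter peak in that replicate. All 5 membrane and intracellular inhibitors besides Smad6 and Smad7 have peaks in both replicates, whereas 5 of the 10 ligands besides Bmp4 have none.

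No SOX3 ChIP-nexus peak lay within 50 kb of any of the 9 genes. The ChIP-nexus lists held 110 and 18 peaks in the whole genome, against 58351 and 38832 in ChIP-seq, so they say little about any single gene. The nearest ChIP-nexus peak of replicate 1 was 465 kb from Id3.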

How the data were processed

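SOX3 ChIP-seq and ChIP-nexus were done on P7 mouse testis by the authors, who aligned reads to mm10 with Novoalign, placing multi-mapped reads at random, and removed duplicates with Picard. Peaks were called with USeq and MACS, per the methods. The processing notes of the labels name MACS2 as the only caller, but the deposited ChIP-seq lists, 1 per replicate, have the q score floor that the methods give for USeq. These lists, as deposited, give each peak a p score and a q score (10 times the negative log10 of the false discovery rate) and the log2 ratio of ChIP over input. The lists have no header, so these column names, and USeq as their caller, were inferred from the methods and values. The deposited ChIP-nexus lists, from MACS2 2.1.1, give a fold ratio and −log10 p-values, of which only positions were used. The methods state that blacklisted regions were removed from the peaks, without saying whether this holds for these per-replicate lists.

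Peaks were assigned by any overlap to curated RefSeq start sites (NM and NR, GRCm38.p6, 45756 transcripts, 26182 genes) with Python 3.11.15, pandas 2.3.3 and numpy 2.4.6. A promoter was 2 kb on either side, and promoter peaks of the replicates overlapped when at least 50% of either was shared. Gene-body and flanking peaks were found when a peak of the other replicate covered at least 50% of the peak itself. Overlap counts equalled those of bedtools 2.31.1, and the code was tested on simulated peaks. Percentiles rank a gene's strongest promoter peak among all genes with one in that replicate. Promoter sequences were matched by symbol in a RefSeq table for 7 of 9 genes. For Id1 and Smad7 no sequence is printed, and their composition and motif matches were read from the genome, as for all genes. The members and gene lists were chosen with earlier results of these data known. The 9 members were all named. Of the other pathway genes, the highest and lowest by mean q score in each role, those with no peak, and the 3 nearest to the members' median percentiles were named. Receptors and SMADs with a peak in a single replicate were named too. Other windows, score minimums, annotations and overlaps were tried.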

Additional observations from a re-analysis of the deposited data

How the results depend on the processing

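Of 40 values recomputed for the comparisons under other settings, 35 stayed within their criterion and 5 moved. These values are counts, shares and percentiles, so they had no direction that could change. Members with a gene-body peak in both replicates fell from 3 to 0 with a q score above 60. The mean number of flanking peaks per replicate, 68.5, became 118 within 100 kb, 26.5 within 20 kb and 14 with a q score above 60, and the mean share of them found in the other replicate rose from 39.2% to 61.7% with that minimum. For single genes, 61 of 63 values were the same and the other 2 were of Bmp4, with a promoter peak in 0 replicates at 1 kb and in 1 at a q score above 60. The 5 kb window and the start sites of all RefSeq transcripts could only add promoter peaks, and a lone replicate kept its own. Those settings could not change a gene's outcome, so the same value there is no evidence of stability. This also holds for the counts of members with promoter peaks among the 40 values. With either replicate alone the members' median percentile ran from 72.4 to 83.9, the flanking peaks from 58 to 79 and the share found from 26.6% to 51.7%. No paired analysis was possible because no result comes from a test. Read depth cannot be had from peak lists, and a missing peak is not an absent one.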
